A study of Mus musculus with 4 samples.

Results

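Hepatocyte growth factor (Hgf) and macrophage-stimulating protein (Mst1) form a small signalling system of 10 genes that was followed here in mouse fibroblasts with and without induced Ctcfl. The 10 genes were the ligands Hgf and Mst1, the receptors Met and Mst1r, the activating proteases Hgfac, St14 and Hpn, the protease inhibitors Spint1 and Spint2, and the docking adaptor Gab1. They are 10 of the 19938 genes that the arrays measured under a single gene symbol, and each of the 10 had 1 probe set. The genes were chosen by their known roles around Hgf, which was itself selected on its measured difference between Ctcfl and control arrays, so all differences of the 10 genes in that contrast are given as a description and not as a test.

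Fibroblasts and other mesenchymal cells secrete HGF as an inactive precursor, and its active form acts on neighbouring epithelial and endothelial cells. The precursor is cut into its active form by serine proteases, namely the HGF activator encoded by Hgfac, matriptase (St14) and hepsin (Hpn), and the Kunitz-type inhibitors HAI-1 (Spint1) and HAI-2 (Spint2) hold these proteases in check. Active HGF binds the receptor tyrosine kinase MET, which recruits GAB1 and drives cell scattering, motility and survival. MST1 is a structurally related factor that is also activated by cleavage and binds the related receptor RON, encoded by Mst1r.

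All samples came from a single stable clone of NIH3T3, an established line of mouse embryonic fibroblasts. The clone carried the vectors pBI-EGFP-FLAG-mCtcfl and pTA-N in both groups, so that FLAG-tagged mouse CTCFL, a testis-expressed paralog of the insulator protein CTCF, was switched off by doxycycline. Doxycycline at 2 µg/ml was present for the 2 control samples and had been absent for 48 h from the 2 Ctcfl samples. The effects of the drug, of Ctcfl and of any EGFP made from the vector therefore cannot be told apart. Whether replicates of a group came from separate cultures is not stated, so the p-values reflect the spread of these particular arrays, possibly a technical one, and the small number of arrays limits the precision.

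Total RNA was hybridised to 4 Affymetrix arrays, 1 per sample, and values are log2 expression values with array medians of 5.20 to 5.24 and lower quartiles of 4.09 to 4.12. Ctcfl itself read 7.77 and 7.71 on the control arrays and 10.37 and 10.35 on the Ctcfl arrays, in the direction that the labels give. The control values lay above the upper quartiles of those arrays (7.43 and 7.40), so the controls cannot be taken as free of Ctcfl RNA. Whether these control values came from the vector or from probe background was not tested. In the fit over all genes by limma, a linear model that shares variance information between genes, 9 genes passed an adjusted p of 0.05 (0.0451%), 6 higher (0.0301%) and 3 lower (0.015%). As a check of the cell type, 9 of 10 fibroblast markers lay between 7.48 and 12.18 on every array, while Lum, a matrix proteoglycan, read 2.82 to 2.98. Of 10 epithelial markers, 9 lay between 4.04 and 5.85 and the epithelial adhesion gene Epcam read 4.14 to 4.28, whereas the simple keratin Krt8 read 5.66 to 6.46. The 7 hepatocyte markers read 3.53 to 5.27 and the 6 endothelial markers 3.24 to 4.73. The 6 macrophage markers read 3.61 to 6.39, with Cd68 the brightest at 6.11 to 6.39.

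The sequences before the first annotated starts of Hgf, Hgfac and Gab1 are shown because these genes had the largest differences among the 10. Each run covers the 250 bases before the start, 5′ to 3′ on the gene's strand, from RefSeq on GRCm38.p6. They lie at chr5:16553245-16553494 (plus strand) for Hgf, chr5:35041259-35041508 (plus strand) for Hgfac and chr8:80880520-80880769 (minus strand) for Gab1. Capitals mark any match to 5 motifs that were searched on both strands. The core of the CTCF site was searched as AGGNGGC. The GC box that SP1 and related factors can bind was searched as GGGCGG. The core recognition element of nuclear receptors was searched as AGGTCA. The TATA box near many regulated starts was searched as TATAAA. The AP-1 site, which reads the same on both strands and was counted once, was searched as TGANTCA.
Hgf: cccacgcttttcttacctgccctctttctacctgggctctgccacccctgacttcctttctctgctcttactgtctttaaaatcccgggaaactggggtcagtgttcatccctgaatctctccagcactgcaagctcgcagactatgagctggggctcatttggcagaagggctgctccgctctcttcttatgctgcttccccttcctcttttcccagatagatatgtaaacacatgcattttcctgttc
Hgfac: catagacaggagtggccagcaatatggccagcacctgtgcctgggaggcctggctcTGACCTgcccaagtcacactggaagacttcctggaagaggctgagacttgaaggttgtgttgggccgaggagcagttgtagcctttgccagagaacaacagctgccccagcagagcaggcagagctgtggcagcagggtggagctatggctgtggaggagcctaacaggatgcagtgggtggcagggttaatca
Gab1: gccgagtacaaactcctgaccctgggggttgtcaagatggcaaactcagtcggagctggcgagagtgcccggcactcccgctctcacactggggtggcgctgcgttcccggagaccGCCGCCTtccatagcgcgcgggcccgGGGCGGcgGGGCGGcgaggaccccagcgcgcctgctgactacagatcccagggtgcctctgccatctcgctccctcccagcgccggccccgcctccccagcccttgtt

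The Hgf sequence held no capitals, that is, none of the 5 motifs. In windows from 250 bases before to 50 after a start, neither annotated start of Hgf (chr5:16553495 and chr5:16553901) had a match, and the same was true of Mst1. The CTCF core was present in 29.4% of the 32841 promoter windows of the annotation, and among the 13 windows of 9 of the genes it was found at Mst1r (second start), Hpn (first start), Spint1, Spint2 and both starts of Gab1. The GC box, present in 35.7% of all windows, was found at Met, Mst1r (first start), Hpn (first start), Spint1, Spint2 and both starts of Gab1. The nuclear receptor element (16.3% of windows) was found at Mst1r and Hgfac, the AP-1 site (7.81%) at Met and Spint1, and the TATA box (13.6%) at none of the 13. The CTCF core and the GC box can share bases in principle, and in the Gab1 sequence above they did not. A match is a description of letters and not a binding site.

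Base composition also differed among these windows. Both Hgf windows were 51.3% G and C, near the median of 52.7% over all windows, with an observed over expected CpG ratio of 0.37 and 0.33 against a median of 0.38. The Met window was 75.7% G and C, above 96.7% of all windows, and the Gab1 windows were 68.0% and 69.0%. The Hgfac window was 58.3% G and C, and its CpG ratio of 0.08, above 10.4% of all windows, was the lowest among these genes. Mst1 and the second start of Hpn came next in CpG ratio, each at 0.21.

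Among the ligands, Hgf read 7.63 and 7.57 on the control arrays and 6.42 and 6.51 on the Ctcfl arrays. Both Ctcfl arrays lay more than 1 log2 unit below both controls, while arrays of one group were 0.06 and 0.09 apart. The mean went from 7.60 ± 0.04 to 6.47 ± 0.06 (SD, n = 2 per group), a 2.20-fold lower level with a log2 difference of -1.14 (SE 0.09, 95% interval -1.35 to -0.92). This was the 3rd lowest difference and the 9th largest in size among all genes, and the limma adjusted p was 0.0275. These are the values that led to the choice of the group. The Hgf probe set was above 73.4% and 73.1% of named genes on the control arrays and above 59.3% and 60.1% on the Ctcfl arrays. With any 1 array left out the difference stayed between -1.18 and -1.09, but the adjusted p was then 0.649 (without control replicate 1), 0.637 (without control replicate 2), 0.539 (without Ctcfl replicate 1) and 0.618 (without Ctcfl replicate 2). It was 0.651 with the replicate number as a block. In RNA from whole cultures, fewer cells of a type and less RNA per cell cannot be told apart.

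The mean over the 10 fibroblast markers was 9.48 and 9.47 on the control arrays and 9.34 and 9.29 on the Ctcfl arrays. Their log2 differences ran from -0.56 to 0.065, with a median of -0.075. A lower mean in the Ctcfl arrays was found for 8 and a higher mean for 2. Of the 10, 6 were lower and 1 was higher in both Ctcfl arrays than in both controls, where each direction held 20.6% of all genes. None passed by limma over all genes. An unadjusted p under 0.05 was reached by 3 of them, Pdgfrb (-0.56), Col3a1 (-0.38) and Pdgfra (-0.29), all lower, against 5.32% of all genes. The mean over the 10 epithelial markers was 4.83 and 4.83 on the control arrays and 4.95 and 4.85 on the Ctcfl arrays. Of these 10, 3 were higher and 0 lower in both Ctcfl arrays than in both controls (20.6% of all genes in each direction), and none passed by limma. At an unadjusted p under 0.05 there was 1 higher (5.36% of all genes), Krt8, which read 6.06 and 5.66 on the control arrays and 6.46 and 6.41 on the Ctcfl arrays, a log2 difference of 0.58 (SE 0.14, limma adjusted p = 0.312). The marker lists were chosen with earlier results of these data known, and the part of these markers in the Hgf difference was not tested.

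The related ligand gene Mst1 read 5.95 and 6.0 on the control arrays and 5.89 and 5.71 on the Ctcfl arrays. Its groups did not overlap, but the nearest arrays were close and the Ctcfl arrays were 0.18 apart. The log2 difference was -0.18 (SE 0.10, 95% interval -0.41 to 0.06). This leaves room for a decrease smaller than that of Hgf, for no change or for a small increase.

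The receptor gene Met gave the steadiest values of the group. It read 9.62 and 9.58 on the control arrays and 9.56 and 9.57 on the Ctcfl arrays. The probe set was above 93.9% to 94.0% of named genes on every array. The log2 difference was -0.04 (SE 0.08), with a 95% interval from -0.24 to 0.17, which holds 0 and does not reach the size measured for Hgf. Mst1r, the receptor of MST1, was dim and scattered, at 4.74 and 5.11 on the control arrays and 5.16 and 4.89 on the Ctcfl arrays. The groups overlapped, with a log2 difference of 0.10 (SE 0.15, 95% interval -0.27 to 0.47), and the sign turned when control replicate 1 (-0.09) or Ctcfl replicate 1 (-0.04) was left out.

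Of the activating proteases, Hgfac read 4.47 and 4.54 on the control arrays and 4.97 and 4.70 on the Ctcfl arrays. Both Ctcfl arrays were above both controls, although they were 0.27 apart, and the log2 difference was 0.33 (SE 0.11, 95% interval 0.05 to 0.61, limma adjusted p = 0.421). Its size depended on the Ctcfl arrays, from 0.20 without Ctcfl replicate 1 to 0.47 without Ctcfl replicate 2, and the adjusted p lay between 0.253 and 0.663 over all alternatives. The membrane-bound proteases showed less. St14 read 5.06 and 5.18 against 5.2 and 5.0, and Hpn read 4.70 and 4.64 against 4.71 and 4.59. Groups overlapped for both genes. The log2 difference was -0.02 for each, with 95% intervals of -0.28 to 0.24 for St14 and -0.24 to 0.20 for Hpn.

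For the inhibitors, Spint1 read 4.92 and 4.97 on the control arrays and 5.17 and 4.94 on the Ctcfl arrays. Spint2 read 4.82 and 4.91 on the control arrays and 5.12 and 4.59 on the Ctcfl arrays. The groups overlapped for both, and the Ctcfl arrays of Spint2 were 0.53 apart, the widest gap within a group among the 10 genes. The log2 difference was 0.11 for Spint1 (SE 0.11, 95% interval -0.15 to 0.37) and -0.01 for Spint2 (SE 0.17, 95% interval -0.43 to 0.41). For Spint2 it was -0.28 without Ctcfl replicate 1 and 0.26 without Ctcfl replicate 2, so the single arrays decided its sign. Mst1r, Hgfac, St14, Hpn, Spint1 and Spint2 were all below the middle of the named genes on every array, and no detection calls were used, so their values cannot be separated from background.

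Gab1, the adaptor that couples active MET to downstream kinases, read 6.90 and 6.86 on the control arrays and 7.20 and 7.12 on the Ctcfl arrays. Both Ctcfl arrays were above both controls by more than the gaps within groups, which were 0.04 and 0.08. The log2 difference was 0.28 (1.21-fold higher, SE 0.09, 95% interval 0.07 to 0.49, limma adjusted p = 0.383), and it stayed between 0.24 and 0.32 with any array left out.

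**Figure D1:**
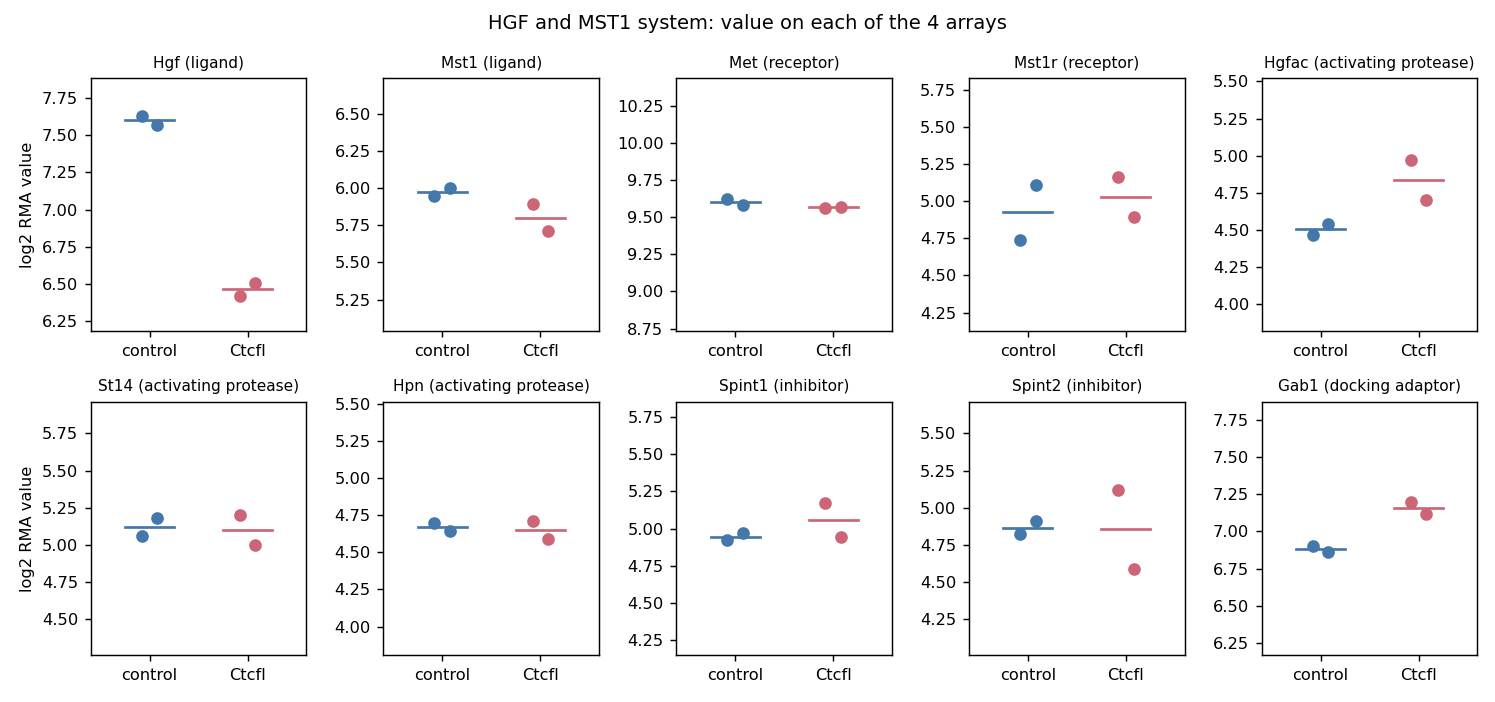
Log2 expression values of the 10 genes on each of the 4 arrays, 1 panel per gene with control arrays in blue and Ctcfl arrays in red; bars are group means of 2 arrays, and all vertical axes span the same number of log2 units. Hgf drops from 7.60 to 6.47, Gab1 and Hgfac sit slightly higher in the Ctcfl arrays, and Met stays between 9.56 and 9.62.

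Seen as a group, the 10 genes did not move together. The Hgf difference stood alone in size, and the other 9 genes ranged from -0.18 to 0.33, with 7 of them at most 0.20 in size, where 82.4% of all genes lay. Groups did not overlap for 5 of the 10, against 41.1% of all genes, with 3 lower (20.6% of all genes) and 2 higher (20.6%). Of the 10, 1 was past the threshold, against 0.0451% of all genes, and it was lower (0.015%). The median difference was -0.02, against 0.00 over all genes. Since the contrast was used to choose the group, nothing is read from these counts.

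**Figure D2:**
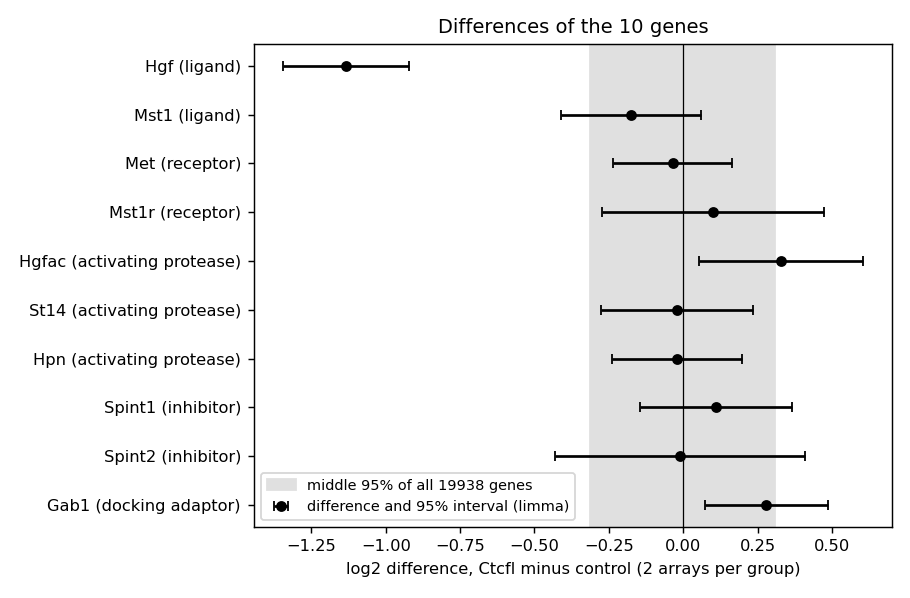
Log2 difference between Ctcfl and control arrays for each of the 10 genes, with the 95% interval from limma (2 arrays per group); the grey band holds the middle 95% of all 19938 genes, from -0.32 to 0.31. Hgf lies at -1.14 outside the band, Hgfac at 0.33 lies just beyond its upper edge and the other 8 genes lie inside it.

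The nearest measured gene on each side of each of the 10 was taken by position alone and compared in the same fit, while the wider region around Hgf was added after its values were seen. Hgf lies at chr5:16553495-16619439 in a region with few measured genes. Its nearest measured neighbours were Cacna2d1, a calcium channel subunit 179 kb before it, and Sema3c, a secreted semaphorin 955 kb after it. Cacna2d1 read 6.29 and 6.12 on the control arrays and 6.29 and 6.22 on the Ctcfl arrays, a log2 difference of 0.05 (95% interval -0.19 to 0.29). Sema3c had 0.11 (95% interval -0.19 to 0.40). The lowest difference among the 6 measured genes besides Hgf within 2000 kb was -0.20 for Gnat3. This taste cell G protein subunit gene read 3.00 to 3.37. None of the 6 passed the threshold (limma adjusted p from 0.546 for Gnat3 to 0.976 for Gnai1). At an unadjusted p under 0.05 there were 0, with 10.7% of all genes past that value.

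**Figure D3:**
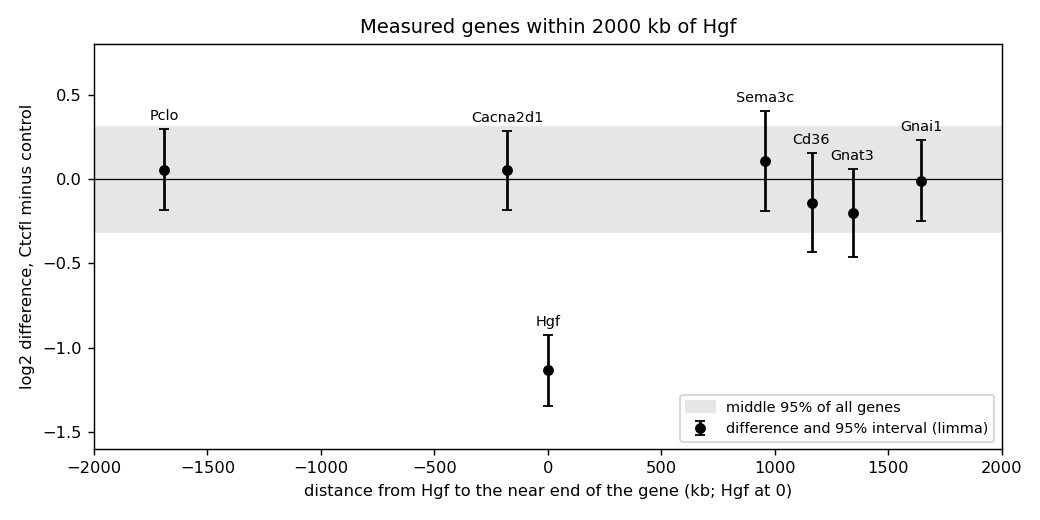
Log2 difference between Ctcfl and control arrays (with 95% interval from limma) of each measured gene within 2000 kb of Hgf, against its distance from Hgf in kb; the grey band holds the middle 95% of all genes. The 6 other genes lie between -0.20 and 0.11, while Hgf lies at -1.14.

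Over all 10 genes there were 20 nearest neighbours, 1 on each side, and none passed by limma over all genes (1 higher and 1 lower at an unadjusted p under 0.05, with 10.7% of all genes past that value). Of these, 18 differed by at most 0.20 in size, where 82.4% of all genes lay. The exceptions were Aplp2, a relative of the amyloid precursor gene next to St14, at 0.50 (SE 0.08, limma adjusted p = 0.18) and Gramd1a, a sterol transport gene next to Hpn, at -0.38 (SE 0.08, limma adjusted p = 0.277). Both passed with robust variances that follow intensity, with adjusted p-values of 8.06e-05 for Aplp2 and 0.0178 for Gramd1a, and under no other alternative. The Mst1 gene lies 57 bases from Rnf123 and 386 bases from Apeh, whose differences were -0.01 and 0.05.

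The wider pathway was followed in 129 measured genes of 5 lists, of 142 genes listed. None passed by limma over all genes, against 0.0451% of all genes. At an unadjusted p under 0.05 there were 27 (20.9%), against 10.7% of all genes, with 8 higher (5.36% of all genes) and 19 lower (5.32%). Groups did not overlap for 51.9% of them, against 41.1% of all genes. These lists were chosen with earlier results of these data known, so nothing is read from these shares or from the counts of each list.

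The list of transcripts known to be induced by HGF and other growth factors was also chosen with earlier results known, so its counts are only described. Of 28 measured genes 22 had a lower mean in the Ctcfl arrays. Both Ctcfl arrays were below both controls for 17 and above both for 2, where each direction held 20.6% of all genes. In all, the groups did not overlap for 67.9% of the list, against 41.1% of all genes. The median difference was -0.14, against 0.00 over all genes, with 8 genes lower (5.32% of all genes) and 0 higher (5.36%) at an unadjusted p under 0.05, and none passed after adjustment (smallest limma adjusted p = 0.156). Egr1, an immediate early transcription factor, read 6.39 and 6.77 on the control arrays and 5.99 and 5.67 on the Ctcfl arrays, a log2 difference of -0.75 (SE 0.16). Ereg, the EGF receptor ligand epiregulin, read 8.30 and 8.16 against 7.51 and 7.65, a difference of -0.65 (SE 0.10). For both genes each Ctcfl array was below each control array. The cytokine Il11 had -0.48 (SE 0.10) and the angiogenic factor Vegfa -0.39 (SE 0.09). The MAP kinase feedback gene Spry4 (-0.36) and the ETS factors Etv5 (-0.31) and Etv4 (-0.23), named after their values were seen, were also among the 8. Not all of the list had such values, as the protease gene Mmp14 (-0.03), Myc (-0.09) and Fos (0.14) showed. Fos read 4.78 to 5.14, below the array medians, and its groups overlapped. These transcripts respond to many growth factors, and the part of Hgf in their values was not tested.

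Co-receptors and genes of receptor turnover included the largest difference of the 5 lists. Dcn, the matrix proteoglycan decorin that can bind MET, read 8.32 and 8.27 on the control arrays and 7.33 and 7.44 on the Ctcfl arrays, a log2 difference of -0.91 (SE 0.09, limma adjusted p = 0.0657). It passed with quantile normalisation (adjusted p = 0.0485), without the dimmest 33.3% of genes (adjusted p = 0.0311) and with robust variances that follow intensity (adjusted p = 4.67e-06), and its adjusted p ran up to 0.651 over the other alternatives. Timp3, an inhibitor of the sheddases that release MET from the cell surface, had -0.52 (SE 0.09), the heparan sulphate proteoglycan Sdc4 had -0.27 and the integrin subunit Itga6 had -0.27. Of 28 measured genes, 5 were lower (5.32% of all genes) and 0 higher (5.36%) at an unadjusted p under 0.05, and none passed by limma. The groups did not overlap for 53.6% of the list, against 41.1% of all genes, and the median was -0.05. The MET co-receptor Cd44 read 9.16 and 9.10 against 9.17 and 9.09, a difference of 0.00.

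Signal relays below the receptors had a median of 0.01. Of 28 measured genes 4 were higher (5.36% of all genes) and 2 lower (5.32%) at an unadjusted p under 0.05, and none passed by limma. The groups did not overlap for 42.9% of the list, near the 41.1% of all genes. The tyrosine kinase gene Src read 7.24 and 7.36 on the control arrays and 7.81 and 7.89 on the Ctcfl arrays, a difference of 0.55 (SE 0.09, limma adjusted p = 0.18). Rapgef1, the RAP1 exchange factor that signals downstream of CRK adaptors, read 8.01 and 8.06 against 8.47 and 8.60, a difference of 0.50 (SE 0.09, limma adjusted p = 0.214). Both genes were higher in each Ctcfl array than in each control array. Braf (0.22) and Pik3cb (0.24) followed. The adaptor genes Grb2 (-0.10), Shc1 (0.04) and Gab2 (0.08, a relative of Gab1) and the phosphatase gene Ptpn11 (0.06) had small values.

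Other serine proteases and serpins numbered 17 measured genes, with a median of 0.06, and 2 were higher (5.36% of all genes) and 1 lower (5.32%) at an unadjusted p under 0.05. None passed by limma, and the groups did not overlap for 47.1% of the list, against 41.1% of all genes. The plasminogen activator gene Plat read 7.47 and 7.42 on the control arrays and 7.25 and 7.11 on the Ctcfl arrays, a difference of -0.27 (SE 0.09). Plau, which encodes urokinase, had -0.09 and its receptor gene Plaur had 0.11. Plg (0.25), Klk4 (0.21) and Tmprss13 (0.33, SE 0.14) read 4.17 to 5.31 and were near the array medians or below.

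Factors known to raise or lower Hgf transcription had a median of 0.01 over 28 measured genes, with 2 higher (5.36% of all genes) and 3 lower (5.32%) at an unadjusted p under 0.05, and none passed by limma. The groups did not overlap for 46.4% of the list, against 41.1% of all genes. Tgfb1, whose product TGF-beta 1 is known to lower Hgf expression in fibroblasts, read 7.47 and 7.53 on the control arrays and 8.08 and 8.03 on the Ctcfl arrays, a difference of 0.56 (SE 0.08, limma adjusted p = 0.156). Ptger4, a receptor of prostaglandin E2, which is known to raise Hgf expression, read 7.32 and 7.30 against 6.99 and 6.80, a difference of -0.42 (SE 0.10, limma adjusted p = 0.30). The other TGF-beta ligand genes did not share the direction of Tgfb1. Tgfb3 had -0.27 (SE 0.08) and was among the 3 lower, and Tgfb2 had -0.19 with overlapping groups. Other genes of prostaglandin E2 synthesis and reception had mixed signs, with Ptges at 0.07, Ptger2 at 0.115 and Ptgs2 at -0.125. The growth factor receptor Pdgfrb had -0.56 (SE 0.09). The estrogen receptor Esr1, at 4.66 to 5.10 and so below the array medians, had 0.40 (SE 0.09). The part of these genes in the Hgf difference was not tested.

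**Figure D4:**
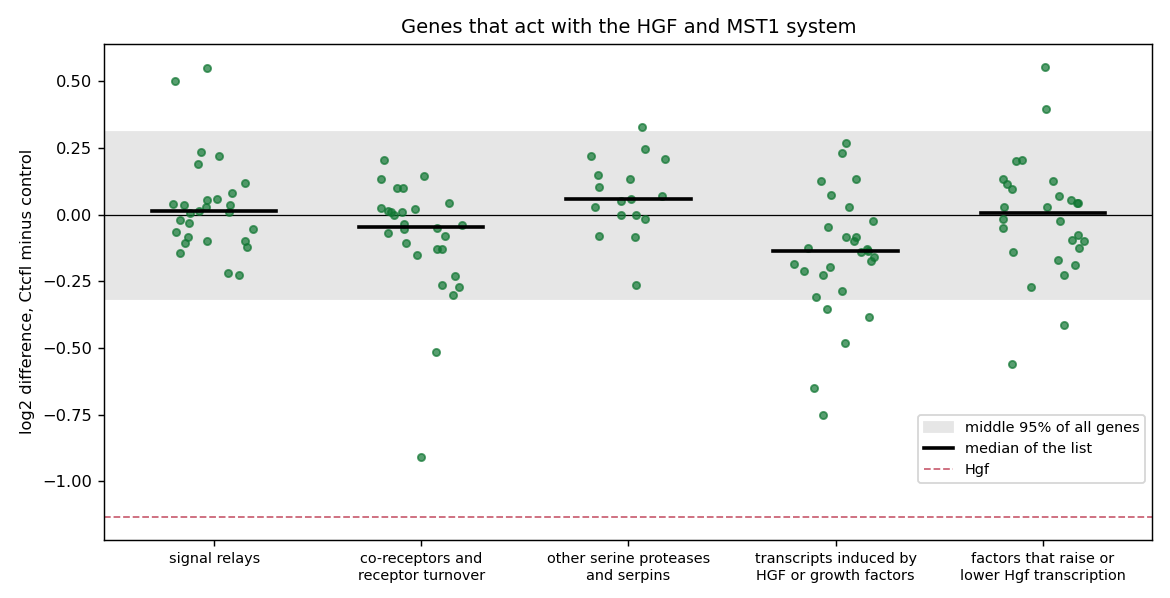
Log2 difference between Ctcfl and control arrays for each of the 129 measured genes of the 5 pathway lists (points), with the median of each list (black bar), the middle 95% of all genes (grey band) and the value of Hgf (dashed line at -1.14). Points of the list of induced transcripts sit mostly below 0, with a median of -0.14, and the lowest point of all is Dcn at -0.91.

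The genes whose pattern over the 4 arrays was nearest to that of Hgf were found by the Euclidean distance between values centred on each gene's mean. They were Akr1c18, a steroid dehydrogenase (distance 0.12), Gcnt4, a glycosyltransferase (0.21), Dcn (0.23), Igfbp4, a binding protein of insulin-like growth factors (0.23), and Cck, a peptide hormone precursor (0.25). Their log2 differences were -1.24, -0.995, -0.91, -0.95 and -0.89 in that order. With 4 arrays in 2 groups, likeness mostly means a similar difference between the groups. Dcn was the gene that appeared both here and in the pathway lists.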

How the data were processed

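The deposited log2 values of 4 arrays were used. Per the labels, the authors made them with RMA in the Expression Console software. RMA corrects background, quantile-normalises arrays and summarises probe sets on the log2 scale. Its version is not given in the sources used here, nor is any detection filter. Of 35512 probe sets 1 had no value. The platform annotation of GEO gave 21789 probe sets 1 gene symbol, 1621 several, and did not list 12101, which are unnamed here. Of those with 1 symbol, 21698 matched RefSeq of GRCm38.p6 by gene ID and 0 symbols changed. The brightest probe set stood for each gene, leaving 19938 genes with no filter on dim ones. In R 4.3.3, limma 3.58.1 (two-sided lmFit with eBayes, Benjamini-Hochberg over all genes, threshold 0.05) compared 2 Ctcfl with 2 control arrays. The test was checked on simulated data.

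The 10 genes and the 5 pathway and 5 marker lists were chosen with earlier results of these data known. Besides the 10 genes, the text names up to 4 genes per pathway list (those past the threshold first, then by smallest unadjusted p), 1 nearest gene per side and the 5 genes most like Hgf. Genes within 2000 kb of Hgf and others given with values were added after their values were seen. Of the listed genes, 13 were not analysed here. Alternatives were each array left out, all probe sets, a replicate block, robust variances that follow intensity (statmod 1.5.0), averaged probe sets, no genes from the dimmest 33.3%, centring on medians, and quantile normalisation. Promoter windows came from RefSeq. Sequence for St14 was not used here. Figures used matplotlib 3.10.9 in Python 3.11.15.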

Additional observations from a re-analysis of the deposited data

How the results depend on the processing

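The Hgf difference lay between -1.18 and -1.09 under all 12 alternatives and passed the threshold under 5 of them. Its adjusted p by limma ran from 2.37e-06 (robust variances that follow intensity) to 0.651 (replicate block). Over all genes, 9 passed in the fit reported, 20 without the dimmest 33.3% of genes, 479 with robust variances that follow intensity (220 higher), and 0 in the fit over all probe sets (2764 at an unadjusted p under 0.05). The count was also 0 to 0 with any array left out (1329 to 1663 unadjusted), where the lone array of a group is assumed to vary like the other group. In the pathway lists the count of 0 became 1 with quantile normalisation and 1 without the dimmest genes, which was Dcn each time, and 15 with those robust variances (3 higher), among them Dcn, Egr1, Ereg, Src, Rapgef1 and Tgfb1. No array left out gave a call there (0 to 0).

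The replicate numbers are not stated to pair the samples. With the replicate number as a block, 0 genes passed (1468 unadjusted) and 0 in the pathway lists (20 unadjusted), with 1 residual degree of freedom. Deviations of same-numbered arrays correlated at -0.102 over genes, so a crossed pairing, chosen after seeing the data, was also run and gave 0 calls (2105 unadjusted). The signs of Mst1r, St14, Hpn, Spint1 and Spint2 turned in 1 or 2 of the 12 alternatives, each time with an array left out.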
